A study of Mus musculus with 8 samples.

Results

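Collagen genes were described in RNA sequencing libraries of mouse colonic mesenchymal cells. All 44 of the 24346 listed gene symbols that carry a collagen chain name, written Col with a type number and a chain number, were taken as members. They comprised 11 fibrillar genes, 6 basement membrane genes (Col4), 6 beaded filament genes (Col6), 9 FACIT genes and 12 genes of other types. Collagens form trimers whose chains wind into a triple helix, and most of them are secreted, while some are transmembrane. Fibrillar collagens form the load-bearing fibrils of connective tissue, type IV collagen forms the network of basement membranes, type VI forms beaded microfilaments around cells, and FACIT collagens bind along fibril surfaces. In the gut wall, mesenchymal cells under the epithelium make most of the fibrillar matrix and contribute chains to the epithelial basement membrane.

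The cells were sorted from large intestine as gp38+ (podoplanin) and PDGFRα high mesenchymal cells after removal of CD45, EpCAM and CD31 bearing cells, and they were negative for Ly6C. From C57BL/6 mice, with treatment by 1 mM GABA, an inhibitory neurotransmitter, together with 20 mM taurine, an osmolyte, 3 libraries were labelled 6 h and 3 were labelled 0 h. With no treatment, 1 library was of genotype Foxl1cre; Cxcl12 flox/flox (the Foxl1cre library) and 1 was Cxcl12 flox/flox alone (the floxed control library). Cxcl12 encodes a chemokine, and Foxl1-Cre recombines floxed alleles in cells that have expressed the transcription factor Foxl1. Both untreated libraries therefore share the floxed Cxcl12 alleles, and the GABA-taurine libraries are not labelled with them. The sources used here do not give ages, pooling of animals or any culture of the cells. No 6 h library without GABA and taurine was analysed here, so time and treatment cannot be told apart. The labels do not state whether the 3 replicates of a time were separate animals or cultures, so a p-value here reflects the spread among these libraries alone, possibly of technical origin.

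Values were in FPKM, which divides a gene's fragments by the length of its transcript and by the size of the library, and can be set side by side between genes. Genes above 0 FPKM numbered 14818 to 14974 in the GABA-taurine libraries, against 20874 and 21006 in the untreated libraries. The number of reads behind these values is unknown. Cxcl12 was at 739.7 FPKM in the Foxl1cre library, against 1298 FPKM in the floxed control library. The gate marker Pdgfra was at 152.3 to 227.3 FPKM in the GABA-taurine libraries, against 225.7 and 201.8 FPKM in the untreated libraries. The other gate marker, Pdpn (gp38), was at 280.7 to 303.7 FPKM in the GABA-taurine libraries, against 91.7 and 96.1 FPKM in the untreated libraries. Of the 8 mesenchymal markers listed, 4 were lower in every GABA-taurine library and at least 2-fold lower (21.9% of all genes). By the same rule 2 were higher (19.8% of all genes), namely Pdpn and Vim. Among the 4 lower markers, Foxl1 and Thy1 averaged under 1 FPKM in the GABA-taurine libraries. They passed the filter, a mean of 1 FPKM over the 8 libraries, only through their untreated values. Their lower level was thus built into their selection. Vim was at 1165 to 1344 FPKM in the GABA-taurine libraries, against 605.5 and 532.5 FPKM in the untreated libraries. The proteoglycan gene Dcn was at 288.0 to 363.9 FPKM in the GABA-taurine libraries, against 6218 and 5741 FPKM in the untreated libraries, and Cd34 was at 36.2 to 51.0 FPKM in the GABA-taurine libraries, against 372.9 and 335.2 FPKM in the untreated libraries. Foxl1 was at 0.109 to 0.289 FPKM in the GABA-taurine libraries, against 11.6 and 10.2 FPKM in the untreated libraries. The 12 epithelial markers summed to 2.71 to 8.29 FPKM in the GABA-taurine libraries, against 1057 FPKM in the Foxl1cre library and 112.9 FPKM in the floxed control library.

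Collagen mRNA was an order of magnitude less abundant in the GABA-taurine libraries than in the untreated libraries. The 44 genes summed to 955.8, 1007 and 950.3 FPKM at 6 h and to 928.3, 906.6 and 901.3 FPKM at 0 h. The same sum was 11361 FPKM in the Foxl1cre library and 9993 FPKM in the floxed control library. Libraries labelled 0 h, which belong to the GABA-taurine set, were thus also far below both untreated libraries. The part of the treatment in this difference was not tested. The untreated mean was 11.3 times the GABA-taurine mean, and the lowest untreated library was 9.92 times the highest GABA-taurine library. As a share of all FPKM, collagens held 0.160% to 0.180% in the GABA-taurine libraries and 1.95% to 2.15% in the untreated libraries. Type III collagen mRNA, Col3a1, ranked 4 among all listed genes in both untreated libraries and 758 to 974 in the GABA-taurine libraries. The most abundant collagen of the GABA-taurine libraries was Col1a1, a chain of type I collagen, at ranks 569 to 714. These 2 sets of libraries differ in mice, in treatment and possibly in handling and scaling, which cannot be told apart, so their levels are compared as a description without a test. In such bulk samples, fewer cells of a collagen-producing type and less collagen RNA per cell cannot be told apart.

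**Figure D1:**
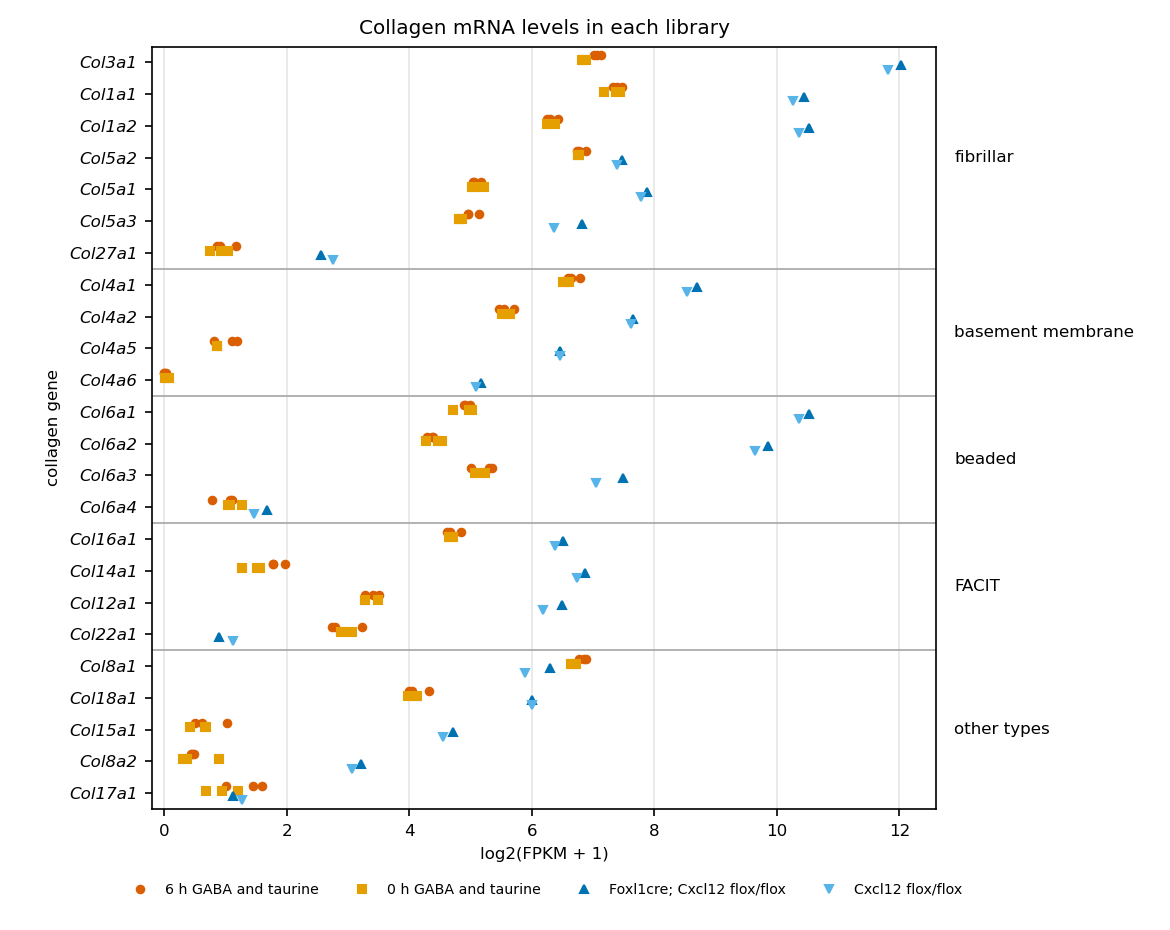
FPKM of each collagen gene with a mean of at least 1 FPKM over the 8 libraries, on a log2(FPKM + 1) axis, 1 symbol per library and 1 row per gene, grouped by structural class. Col3a1 lies at 111.6 to 139.0 FPKM in the GABA-taurine libraries and at 4176 and 3613 FPKM in the untreated libraries, while Col22a1 and, as deposited, Col8a1 lie the other way.

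The promoters of 5 members that stand for the range of these differences are shown, chosen with their values in view. Col3a1 and Col1a2 are abundant fibrillar chains, Col6a1 and Col4a6 have some of the largest differences between the sets, and Col8a1 differed in the opposite direction as deposited. Each sequence is the 250 bases before the start site of the RefSeq promoter table in build GRCm38.p6, 5′ to 3′ on the gene's strand. For Col4a6 the annotated gene begins upstream of that site, so the last 19 of the 250 bases lie within the gene. The other 4 sequences lie wholly outside theirs. They lie at chr1:45311288-45311537 (plus strand) for Col3a1, chr6:4505368-4505617 (plus strand) for Col1a2, chr10:76726045-76726294 (minus strand) for Col6a1, chrX:141474077-141474326 (minus strand) for Col4a6 and chr16:57754738-57754987 (minus strand) for Col8a1. Capitals mark matches, on either strand, to 5 motifs. The CCAAT box is bound by NF-Y. The TATAAA box positions the start of transcription. The GC box GGGCGG is bound by Sp1 and reads CCGCCC where it lies on the opposite strand. The element TGANTCA is bound by AP-1. The element CAGACA, which holds a Smad site, reads TGTCTG on the opposite strand. No matches of different motifs in these 5 sequences share a base.
Col3a1: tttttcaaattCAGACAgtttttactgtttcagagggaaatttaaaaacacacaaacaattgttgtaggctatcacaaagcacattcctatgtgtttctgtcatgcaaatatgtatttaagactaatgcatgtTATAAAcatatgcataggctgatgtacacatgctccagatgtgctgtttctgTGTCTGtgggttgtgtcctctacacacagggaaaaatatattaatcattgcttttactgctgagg
Col1a2: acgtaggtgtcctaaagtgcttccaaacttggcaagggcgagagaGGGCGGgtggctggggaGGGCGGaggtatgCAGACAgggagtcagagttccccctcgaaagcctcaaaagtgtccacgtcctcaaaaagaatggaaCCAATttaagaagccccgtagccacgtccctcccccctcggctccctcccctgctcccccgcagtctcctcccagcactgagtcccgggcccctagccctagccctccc
Col6a1: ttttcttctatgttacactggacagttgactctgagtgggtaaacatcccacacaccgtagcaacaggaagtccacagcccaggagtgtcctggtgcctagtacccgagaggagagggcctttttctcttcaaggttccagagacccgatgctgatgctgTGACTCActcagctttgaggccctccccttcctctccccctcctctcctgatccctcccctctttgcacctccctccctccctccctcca
Col4a6: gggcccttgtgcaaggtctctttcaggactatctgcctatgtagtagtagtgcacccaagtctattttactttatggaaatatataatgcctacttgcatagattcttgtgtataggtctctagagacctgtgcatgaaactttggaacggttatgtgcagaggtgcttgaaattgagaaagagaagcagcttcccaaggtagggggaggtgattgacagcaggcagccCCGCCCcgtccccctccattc
Col8a1: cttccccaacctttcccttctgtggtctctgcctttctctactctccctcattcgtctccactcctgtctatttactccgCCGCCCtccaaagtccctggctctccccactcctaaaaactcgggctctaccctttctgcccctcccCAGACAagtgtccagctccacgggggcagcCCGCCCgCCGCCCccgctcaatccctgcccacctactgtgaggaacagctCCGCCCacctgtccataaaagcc
Col3a1 held TATAAA from 117 to 112 bases before the start and CAGACA at 2 places. Col1a2 held CCAAT from 109 to 105 bases before the start, with GGGCGG at 2 places and CAGACA once. Col6a1 held only TGANTCA, from 90 to 84 bases before the start. Col4a6 held only GGGCGG, from 21 to 16 bases before the start and thus partly within the annotated gene, whereas Col8a1 held GGGCGG at 4 places and CAGACA once. Over the 250 bases before each RefSeq start, 38 windows matched 35 collagen genes, and GGGCGG was found in 22 of them, CCAAT in 13, CAGACA in 9, TATAAA in 5 and TGANTCA in 1. Of all 32851 promoters, 32.7% held GGGCGG, 33.8% CCAAT, 17.1% CAGACA, 12.4% TATAAA and 6.75% TGANTCA. A match is a description of letters in this window and is no evidence of binding.

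Among fibrillar collagens, the major fibril-forming chains were far lower in the GABA-taurine libraries. Col3a1 (chr1:45311538-45349706, mm10) was at 132.4, 139.0 and 128.7 FPKM at 6 h and at 117.7, 111.6 and 113.8 FPKM at 0 h, against 4176 FPKM in the Foxl1cre library and 3613 FPKM in the floxed control library. The untreated mean was 31.4 times the GABA-taurine mean, a log2 difference of -4.96 on the log2(FPKM + 1) scale used for all differences here, GABA-taurine minus untreated. Type III collagen forms mixed fibrils with type I collagen in distensible tissues. Col1a2 was at 77.8, 85.4 and 75.0 FPKM at 6 h and at 81.8, 74.7 and 77.9 FPKM at 0 h, against 1466 FPKM in the Foxl1cre library and 1310 FPKM in the floxed control library (log2 difference -4.12). Col1a1 (chr11:94936224-94953042) was at 159.2, 167.5 and 176.7 FPKM at 6 h and at 172.6, 164.2 and 144.3 FPKM at 0 h, against 1387 FPKM in the Foxl1cre library and 1230 FPKM in the floxed control library (log2 difference -2.99). No library of either set reached the range of the other for these 3 genes, and the fold between the sets was 31.4 for Col3a1, 17.6 for Col1a2 and 7.97 for Col1a1. Such separation was common among the 10910 genes that averaged 1 FPKM or more in the GABA-taurine libraries. Of these, 31.7% were apart and lower in the GABA-taurine libraries and 45.8% apart and higher.

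Type V collagen, which is built into type I fibrils and limits their diameter, differed between its chains. Col5a1 was at 31.5 to 36.2 FPKM in the GABA-taurine libraries, against 234.8 and 218.3 FPKM in the untreated libraries, a log2 difference of -2.73. Col5a2 was at 106.1 to 116.8 FPKM in the GABA-taurine libraries, against 177.3 and 166.7 FPKM in the untreated libraries, a log2 difference of -0.66. The sets did not overlap for either chain, where 31.7% of the 10910 genes given above were also apart and lower. Col5a2 differed by 1.58-fold and Col5a1 by 6.82-fold. The remaining chain, Col5a3, was at 27.1 to 34.1 FPKM in the GABA-taurine libraries, against 112.3 and 81.2 FPKM in the untreated libraries (log2 difference -1.67). Col27a1, a fibrillar collagen best known from cartilage, was at 0.669 to 1.24 FPKM in the GABA-taurine libraries, against 4.92 and 5.71 FPKM in the untreated libraries. Col24a1 was listed at 0 in 5 of the 6 GABA-taurine libraries and was at 2.90 and 3.09 FPKM in the untreated libraries. The cartilage collagens Col2a1, Col11a1 and Col11a2 were under 1 FPKM in all 8 libraries.

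In the GABA-taurine libraries, the basement membrane chains fell into abundant and rare pairs. Col4a1 and Col4a2 encode the chains of the type IV collagen found in nearly all basement membranes. Col4a1 was at 89.7 to 109.6 FPKM in the GABA-taurine libraries, against 413.7 and 367.9 FPKM in the untreated libraries. Col4a2 was at 42.9 to 51.3 FPKM in the GABA-taurine libraries, against 199.8 and 196.2 FPKM in the untreated libraries (log2 difference -2.06). These head-to-head genes on chr8 differed by nearly equal folds of 4.03 and 4.22. Their annotated ends share 85 bases and the kit does not mark strand, so reads from the shared bases cannot be assigned.

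Col4a5 and Col4a6 are the X-linked chains of a second type IV network that occurs in smooth muscle and some epithelial basement membranes. Both were low in the GABA-taurine libraries, at no more than 1.28 FPKM. Col4a5 was at 1.15, 1.28 and 0.757 FPKM at 6 h and at 0.813, 0.817 and 0.824 FPKM at 0 h, against 87.2 FPKM in the Foxl1cre library and 87.5 FPKM in the floxed control library. Col4a6 was listed at 0 in 2 of the 6 GABA-taurine libraries and at no more than 0.0495 FPKM in the others, against 35.0 FPKM in the Foxl1cre library and 33.1 FPKM in the floxed control library. The 2 sets were separated by a log2 difference of -5.52 for Col4a5 and -5.10 for Col4a6. The value for Col4a6 depends on the added 1 FPKM. Col4a3 and Col4a4, the chains of the mature kidney glomerulus, were under 0.1 FPKM in every GABA-taurine library, against 1.79 and 1.91 FPKM for Col4a3 and 0.583 and 1.07 FPKM for Col4a4 in the untreated libraries.

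Type VI collagen showed the largest class difference. Summed Col6 FPKM was 79.5 to 91.5 in the GABA-taurine libraries, against 2576 in the Foxl1cre library and 2252 in the floxed control library, a 28.1-fold difference in means. Col6a1 was at 29.0, 30.8 and 28.6 FPKM at 6 h and at 31.6, 30.3 and 25.3 FPKM at 0 h, against 1470.4 FPKM in the Foxl1cre library and 1313 FPKM in the floxed control library (log2 difference -5.52). Col6a2, whose chain is needed beside that of Col6a1 to form the trimer, was at 18.4 to 22.1 FPKM in the GABA-taurine libraries, against 922.5 and 803.3 FPKM in the untreated libraries (log2 difference -5.36). Col6a3, the longest of the main chains, was at 31.2 to 39.8 FPKM in the GABA-taurine libraries, against 178.4 and 130.9 FPKM in the untreated libraries (log2 difference -2.08). The sets were thus 47.5-fold apart for Col6a1 and 43.2-fold for Col6a2 but 4.36-fold for Col6a3. The alternative chain Col6a4 was at 0.724 to 1.41 FPKM in the GABA-taurine libraries, against 2.19 and 1.75 FPKM in the untreated libraries. Col6a5 was at no more than 0.172 FPKM in the GABA-taurine libraries, against 1.97 and 2.09 FPKM in the untreated libraries. Col6a6 was listed at 0 in all 6 GABA-taurine libraries, against 0.845 and 0.952 FPKM in the untreated libraries.

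FACIT collagens did not share a direction. Col14a1, which binds fibrils and is involved in their early assembly, was at 2.43, 2.41 and 2.90 FPKM at 6 h and at 1.42, 1.85 and 1.97 FPKM at 0 h, against 116.1 FPKM in the Foxl1cre library and 106.3 FPKM in the floxed control library (log2 difference -5.16). Col12a1, its close relative, was at 8.65 to 10.3 FPKM in the GABA-taurine libraries, against 89.0 and 71.7 FPKM in the untreated libraries (log2 difference -2.97). Col16a1, a minor FACIT of fibroblasts and smooth muscle, was at 23.5 to 27.7 FPKM in the GABA-taurine libraries, against 90.6 and 81.8 FPKM in the untreated libraries (log2 difference -1.75). Col22a1, a collagen of tissue junctions such as that of muscle and tendon, was the member with the clearest opposite difference. Col22a1 was at 5.89, 5.65 and 8.40 FPKM at 6 h and at 6.37, 7.35 and 6.79 FPKM at 0 h, against 0.855 FPKM in the Foxl1cre library and 1.17 FPKM in the floxed control library, a 6.65-fold higher mean in the GABA-taurine libraries (log2 difference 1.94). Of the remaining FACIT members, Col9a1, Col9a2, Col9a3 and Col19a1 were under 1 FPKM in all 8 libraries, and Col20a1 passed 1 FPKM in 1 library at 6 h.

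Among the other types, Col8a1, a short-chain collagen that forms hexagonal networks in vessel walls and the cornea, was higher in the GABA-taurine libraries as deposited. It was at 114.9, 117.0 and 107.6 FPKM at 6 h and at 98.8, 100.6 and 105.0 FPKM at 0 h, against 77.5 FPKM in the Foxl1cre library and 58.4 FPKM in the floxed control library. The sets did not overlap, where 45.8% of the 10910 genes given above were also apart and higher. The log2 difference was 0.66, but under median-ratio scaling between libraries the difference was 0.19 and the sets overlapped. Col8a2, its partner chain, went the other way at 0.232 to 0.866 FPKM in the GABA-taurine libraries, against 8.21 and 7.36 FPKM in the untreated libraries (log2 difference -2.64). The multiplexins Col15a1 and Col18a1, whose C-terminal fragments are restin and endostatin, sit at basement membranes. Col15a1 was at 0.344 to 1.02 FPKM in the GABA-taurine libraries, against 25.2 and 22.5 FPKM in the untreated libraries (log2 difference -3.98). Col18a1 was at 14.7 to 19.0 FPKM in the GABA-taurine libraries, against 63.3 and 63.4 FPKM in the untreated libraries (log2 difference -1.92). Col17a1, the transmembrane collagen of epithelial hemidesmosomes, overlapped between the sets at 0.607 to 2.04 FPKM in the GABA-taurine libraries and 1.17 and 1.41 FPKM in the untreated libraries. The transmembrane collagens Col13a1, Col23a1 and Col25a1 and the von Willebrand domain collagen Col28a1 stayed under 1 FPKM in every GABA-taurine library and reached 1.36 to 3.27 FPKM in the untreated libraries. Col7a1 of anchoring fibrils, Col10a1 of growth plate cartilage and Col26a1 were under 1 FPKM in all 8 libraries.

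Counted over all 44 genes without a filter on low values, 36 were lower in every GABA-taurine library than in both untreated libraries, where 52.2% of all 22128 genes above 0 were, 3 were higher in every one (22.9% of all genes), and 5 overlapped. At least 2-fold separation of the means was added for 26 lower genes (23.4% of all genes) and for 1 higher gene, Col22a1 (10.8%). The median log2 difference over the 44 genes was -1.54, beside -0.37 over all genes. A filter on the GABA-taurine libraries alone leaves out members that are low there. It kept the 19 collagens that averaged 1 FPKM or more in them, of which 16 were apart and lower (31.7% of the 10910 genes that passed the same filter) and 2 apart and higher (45.8%). Of these, 14 were at least 2-fold lower (15.1%) and 1 at least 2-fold higher (21.8%). Among the 24 collagens that averaged 1 FPKM or more over all 8 libraries, 22 had a lower mean log2 value in the GABA-taurine libraries (48.1% of all genes), 19 were apart and at least 2-fold lower beside 21.9% of 12043 genes, and 1 was higher beside 19.8%. Of those 19, Col4a5, Col4a6, Col8a2, Col15a1 and Col27a1 averaged under 1 FPKM in the GABA-taurine libraries. They passed this filter only through their untreated values, so their lower level was built into their selection. Under median-ratio scaling the median of all genes shifted to -0.41, and 1341 genes were then higher and 4008 lower, beside 2379 higher and 2643 lower as deposited. The 24 collagens all have transcripts longer than 4000 nt, for which the all-gene median was 0.03 up to 6000 nt and -0.18 beyond. Marker sums of epithelial cells, given above, and of leukocytes and endothelium were also lower in the GABA-taurine libraries. The 10 leukocyte genes summed to 4.60 to 16.0 FPKM in the GABA-taurine libraries, against 202.1 and 166.0 FPKM in the untreated libraries. The 9 endothelial genes summed to 12.7 to 20.5 FPKM in the GABA-taurine libraries, against 45.1 and 69.2 FPKM in the untreated libraries. Among the marker genes, Ptprc, Cd3e, Pecam1, Cdh5 and Epcam were each listed at 0 in some GABA-taurine library. The 10 pericyte and smooth muscle genes summed to 934.5 to 1033 FPKM in the GABA-taurine libraries, against 804.6 and 674.0 FPKM in the untreated libraries. Acta2 and Tagln made up most of that sum. Of these 10 genes, 9 averaged 1 FPKM or more over the 8 libraries. Of those 9, 5 were apart and at least 2-fold lower (21.9% of all genes) and 0 higher (19.8%). Among the lower genes, Rgs5, Kcnj8, Abcc9 and Myh11 averaged under 1 FPKM in the GABA-taurine libraries. They passed this filter only through their untreated values, so their lower level was built into their selection. Myh11, for example, was at 0.291 to 1.18 FPKM in the GABA-taurine libraries, against 14.9 and 15.8 FPKM in the untreated libraries. Their part in the collagen difference was not tested.

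**Figure D2:**
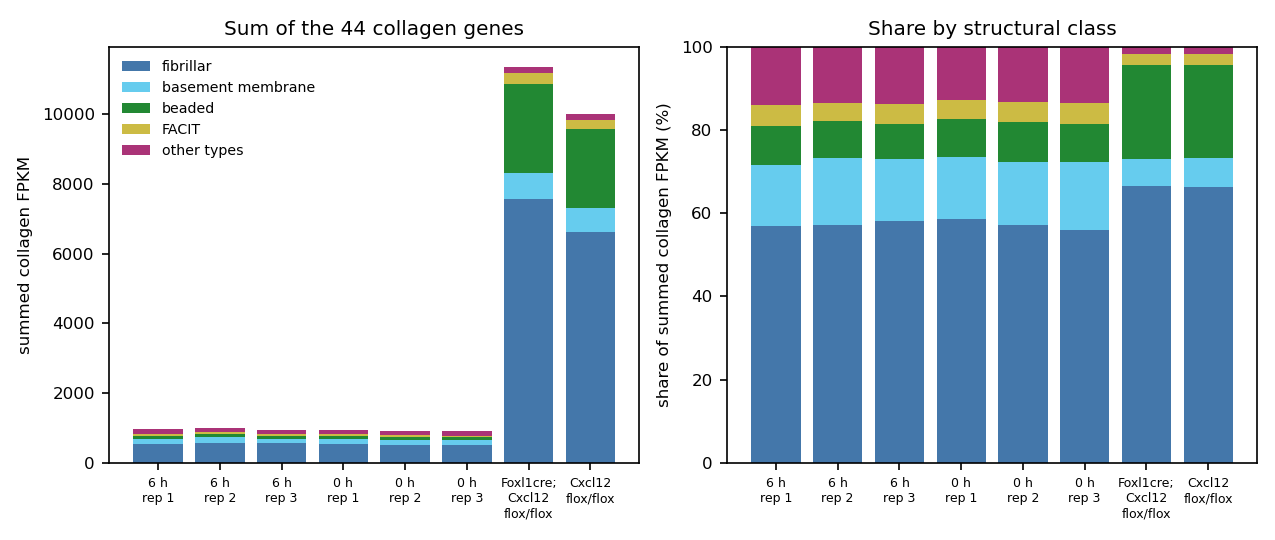
Left, summed FPKM of the 44 collagen genes in each library, stacked by structural class. Right, the same classes as a percent of the summed collagen FPKM of that library. Beaded collagens hold 8.36% to 9.73% in the GABA-taurine libraries and 22.5% to 22.7% in the untreated libraries.

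The make-up of the collagen mRNA differed along with its amount. Fibrillar genes held 56.1% to 58.6% of collagen FPKM in the GABA-taurine libraries and 66.3% to 66.6% in the untreated libraries. Beaded genes held 8.36% to 9.73% in the GABA-taurine libraries and 22.5% to 22.7% in the untreated libraries. The other classes held the larger share in the GABA-taurine libraries. Basement membrane genes held 14.8% to 16.3% in the GABA-taurine libraries, against 6.50% to 6.88% in the untreated libraries. FACIT genes held 4.18% to 5.05% in the GABA-taurine libraries, against 2.63% to 2.64% in the untreated libraries. The other types held 12.7% to 14.1% in the GABA-taurine libraries, against 1.62% to 1.63% in the untreated libraries. Col8a1 alone held 10.6% to 12.0% of collagen FPKM in the GABA-taurine libraries, against 0.584% to 0.683% in the untreated libraries. Col3a1 held 12.3% to 13.9% in the GABA-taurine libraries, against 36.2% to 36.8% in the untreated libraries. In summed FPKM, the untreated mean was 13.2 times the GABA-taurine mean for fibrillar genes, 4.92 times for basement membrane genes, 6.33 times for FACIT genes and 1.37 times for the other types. Shares and ratios within a library do not depend on scaling between libraries.

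Between the sets, chains of the same trimer differed by like folds in some pairs and by unlike folds in others. Type I collagen is chiefly a heterotrimer with more Col1a1 than Col1a2 chains. The Col1a1 to Col1a2 ratio of FPKM was 1.85 to 2.36 in the GABA-taurine libraries, against 0.946 in the Foxl1cre library and 0.939 in the floxed control library. Col4a1 to Col4a2 was 1.88 to 2.31 in the GABA-taurine libraries, against 2.07 and 1.88 in the untreated libraries, and these ranges overlapped. Col6a1 to Col6a2 was 1.37 to 1.56 in the GABA-taurine libraries, against 1.59 and 1.64 in the untreated libraries. The ratios with Col6a3 and within type V were the most unlike. Col6a3 to Col6a1 was 1.03 to 1.45 in the GABA-taurine libraries, against 0.121 and 0.0997 in the untreated libraries. Col5a1 to Col5a2 was 0.294 to 0.337 in the GABA-taurine libraries, against 1.32 and 1.31 in the untreated libraries. At 6 h the Col1a1 to Col1a2 ratio averaged 2.12 ± 0.207, against 2.05 ± 0.179 at 0 h (SD, n = 3 each), so the times differed by less than their spread. The Col4a1 to Col4a2 ratio averaged 2.17 ± 0.122 at 6 h and 1.97 ± 0.0984 at 0 h, and each value at 6 h was above each at 0 h, the closest being 2.074 at 6 h and 2.072 at 0 h. Col6a1 to Col6a2 averaged 1.52 ± 0.0596 at 6 h and 1.42 ± 0.0735 at 0 h, with overlapping values. The other ratios overlapped between the times too, and no test was run on any ratio.

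**Figure D3:**
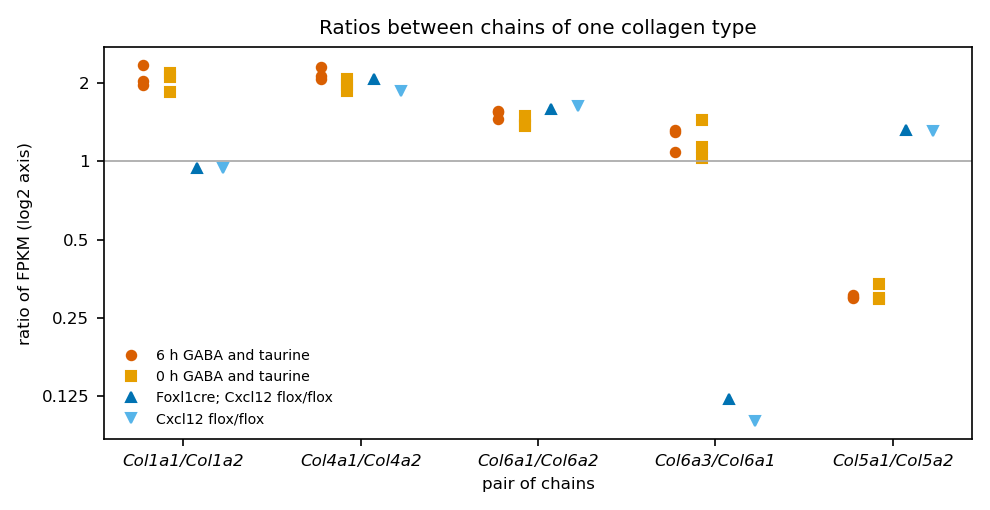
Ratio of the FPKM of pairs of chains of the same collagen type in each library, on a log2 axis, 1 symbol per library. The Col1a1 to Col1a2 ratio is 1.85 to 2.36 in the GABA-taurine libraries and 0.946 and 0.939 in the untreated libraries, while the Col4a1 to Col4a2 ratios overlap.

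The time comparison asks which genes differ after 6 h with GABA and taurine. No collagen passed the threshold. Of the 44 genes, 19 averaged 1 FPKM or more over the 6 libraries and were tested with limma, and 0 had a Benjamini-Hochberg adjusted p under 0.05, in a fit that called 60 of 10910 genes (0.550%), 26 higher (0.238%) and 34 lower (0.312%). At an unadjusted p under 0.05 there were 4 collagens (9.38% of all genes), all of them higher at 6 h (4.45%). Summed collagen FPKM averaged 971.1 ± 31.4 at 6 h and 912.1 ± 14.3 at 0 h (SD, n = 3 each), and every 6 h library lay above every 0 h library. The 14 positive and 5 negative log2 differences stand beside 49.5% positive over all genes tested, and the medians were 0.05 for collagens and -0.0019 for all genes. The 25 members that were not tested were at under 1 FPKM on average in these libraries.

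Those 4 genes were Col3a1, Col8a1, Col5a3 and Col14a1, which belong to 3 structural classes. The 3 values at 6 h all lay above the 3 at 0 h for these 4 genes, as they did for 7.25% of all genes tested, and 0 collagens had the opposite separation (8.01%). Col3a1 averaged 133.3 ± 5.20 FPKM at 6 h and 114.4 ± 3.09 FPKM at 0 h (SD, n = 3 each), with a log2 difference of 0.22 (SE 0.06) and a limma Benjamini-Hochberg adjusted p of 0.135. Col8a1 averaged 113.2 ± 4.93 FPKM at 6 h and 101.5 ± 3.16 FPKM at 0 h, with a log2 difference of 0.16 (SE 0.06) and an adjusted p of 0.393 in the same limma fit. Both are among the 3 most abundant members of their class. Col5a3 averaged 31.4 ± 2.32 FPKM at 6 h and 27.5 ± 0.637 FPKM at 0 h, with a log2 difference of 0.19 (SE 0.08) and an adjusted p of 0.482 in limma. Col14a1 averaged 2.58 ± 0.281 FPKM at 6 h and 1.75 ± 0.291 FPKM at 0 h, with a log2 difference of 0.38 (SE 0.16) and an adjusted p of 0.486 in limma. None of these differences holds after adjustment over all genes.

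The remaining abundant chains had intervals that included 0. The limma 95% interval of the log2 difference, 6 h minus 0 h, was -0.08 to 0.22 for Col1a1 and -0.12 to 0.17 for Col1a2. It was -0.02 to 0.26 for Col4a1 and -0.19 to 0.15 for Col4a2. For the type VI chains it was -0.17 to 0.22 for Col6a1, -0.27 to 0.13 for Col6a2 and -0.13 to 0.27 for Col6a3. Low members had wider intervals, such as -0.06 to 0.87 for Col17a1, which averaged 1.58 ± 0.529 FPKM at 6 h and 0.944 ± 0.349 FPKM at 0 h. Differences within these intervals were not resolved with 3 libraries per time. Of the 6 mesenchymal markers tested, 5 were higher at 6 h (49.5% of all genes) and Vim was lower. Their median log2 difference was 0.17, and 0 passed the threshold. Epithelial markers summed to 4.31 to 8.29 FPKM at 6 h and to 2.71 to 4.26 FPKM at 0 h, and 1 of the 2 that were tested, Krt8, passed the threshold as higher at 6 h (limma adjusted p 0.0319). The 3 mesothelial markers, all of them listed at 0 in some library, summed to 0.816 to 1.24 FPKM at 6 h and to 0 to 0.0886 FPKM at 0 h. Their part in the collagen values was not tested.

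**Figure D4:**
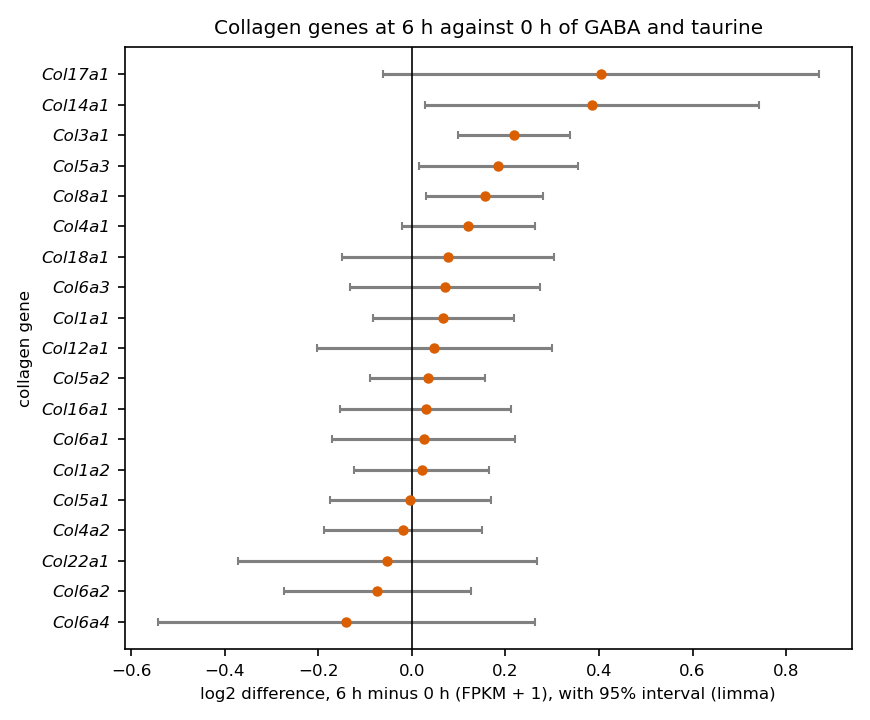
Log2 difference of FPKM + 1 at 6 h minus 0 h for the 19 collagens tested, with limma 95% intervals as bars and 3 libraries per time. The intervals of Col3a1, Col8a1, Col5a3 and Col14a1 lie above 0 before adjustment, and no collagen passes after adjustment over all genes.

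The genotype comparison concerns sorted cells in which Foxl1-Cre acts on floxed Cxcl12, and with 1 library per genotype it has no test and no replicate check. Most collagens were slightly higher in the Foxl1cre library. Of the 31 members with a mean of at least 1 FPKM over both libraries, 22 were higher and 9 lower, beside 55.0% higher over 14949 genes, and the median log2 difference, Foxl1cre minus floxed control, was 0.14 for collagens and 0.04 for all genes. It was 0.06 for collagens and -0.04 for all genes under median-ratio scaling. No collagen differed by 1.5-fold on the log2(FPKM + 1) scale, where 4.16% of all genes were higher by that much and 7.00% lower. The 13 members that did not pass were at no more than 1.07 FPKM in either library.

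The main chains differed by similar small amounts. Col3a1 was at 4176 FPKM in the Foxl1cre library and at 3613 FPKM in the floxed control library, a log2 difference of 0.21. The log2 difference was 0.17 for Col1a1, 0.16 for Col1a2, 0.16 for Col6a1, 0.20 for Col6a2 and 0.17 for Col4a1. Col4a2, Col4a5 and Col18a1 were within 0.03 of 0. The summed collagen FPKM of the Foxl1cre library was 1.14 times that of the floxed control library, and each class kept nearly the same share in both, as with fibrillar genes at 66.6% in the Foxl1cre library and 66.3% in the floxed control library.

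The 5 largest differences upward were in chains of both low and high level. Col28a1 was at 2.79 FPKM in the Foxl1cre library and at 1.68 FPKM in the floxed control library, a log2 difference of 0.50. The type V chain Col5a3 was at 112.3 FPKM in the Foxl1cre library and 81.2 FPKM in the floxed control library, a log2 difference of 0.46. The type VI chain Col6a3 was at 178.4 FPKM in the Foxl1cre library and 130.9 FPKM in the floxed control library, a log2 difference of 0.44. Col5a3 and Col6a3 thus differed more than the other chains of their trimers. Col8a1, given above, differed by 0.40, and Col13a1 was at 2.63 FPKM in the Foxl1cre library and 1.93 FPKM in the floxed control library, a difference of 0.31. In the other direction, Col22a1 was at 0.855 FPKM in the Foxl1cre library and 1.17 FPKM in the floxed control library, a log2 difference of -0.23. The next log2 differences were -0.18 for Col27a1, -0.15 for Col17a1, -0.14 for Col23a1 and -0.07 for Col24a1, all of which were under 6 FPKM in both libraries. Epithelial markers were higher in the Foxl1cre library in all 11 that passed the filter (55.0% of all genes), 10 by at least 1.5-fold (4.16%). Among them, Phgr1, at 46.8 FPKM in the Foxl1cre library and 0.604 FPKM in the floxed control library, passed only through the Foxl1cre library. The 12 epithelial markers summed to 1057 FPKM in the Foxl1cre library and 112.9 FPKM in the floxed control library. Endothelial markers summed to 45.1 FPKM in the Foxl1cre library and 69.2 FPKM in the floxed control library. Their part in the collagen values was not tested.

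**Figure D5:**
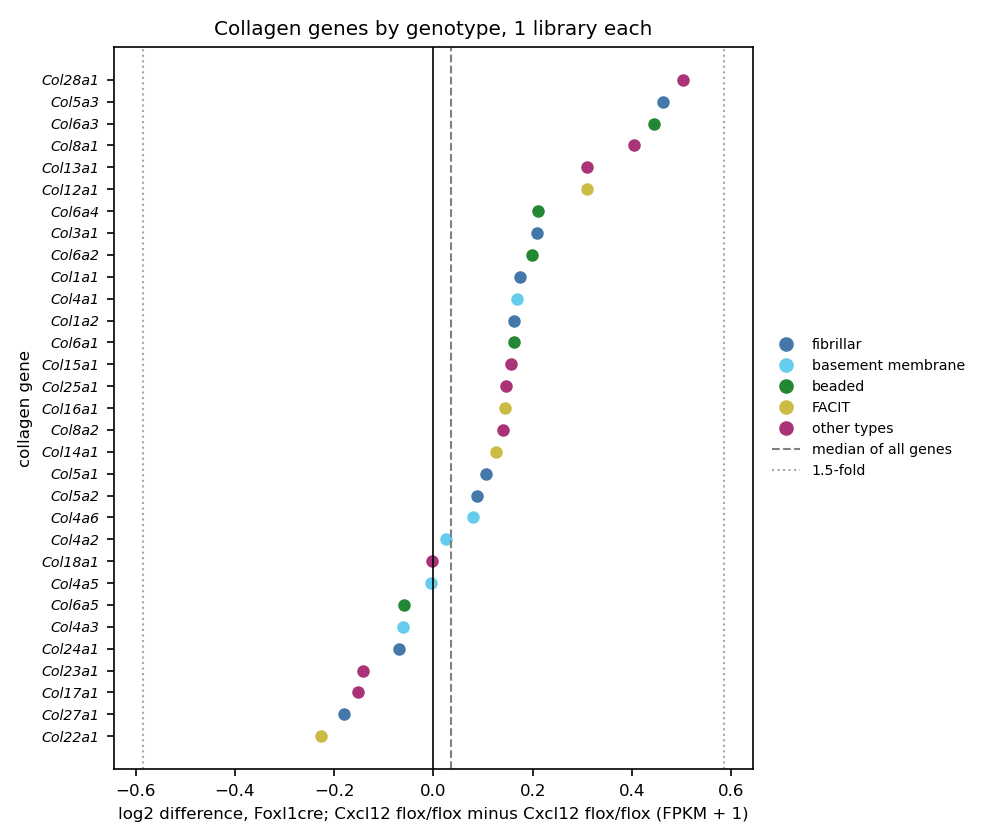
Log2 difference of FPKM + 1, Foxl1cre library minus floxed control library, for the 31 collagens with a mean of at least 1 FPKM over both, with 1 library per genotype and colours for the structural classes. All lie between -0.23 and 0.50, inside the dotted 1.5-fold lines, and 22 lie above 0.

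Enzymes and partners of collagen were read beside the chains from lists of 74 genes in all, also chosen with earlier results of these data known. Of the folding and modification genes, 21 averaged 1 FPKM or more over the 8 libraries. Of these 21, 5 were apart and at least 2-fold lower in the GABA-taurine libraries (21.9% of all genes) and 1 was higher (19.8%). Among the 5, Colgalt2 averaged 0.307 FPKM in the GABA-taurine libraries and passed this filter only through its untreated values. Its lower level was thus built into its selection. Serpinh1, the collagen chaperone HSP47, averaged 384.0 FPKM in the GABA-taurine libraries and 633.4 FPKM in the untreated libraries, and P4hb, a subunit of prolyl 4-hydroxylase, averaged 325.5 FPKM in the GABA-taurine libraries and 418.4 FPKM in the untreated libraries. Lysyl hydroxylase Plod1 averaged 24.3 FPKM in the GABA-taurine libraries and 116.3 FPKM in the untreated libraries. The 1 folding gene that was higher by this rule, P4ha3, averaged 13.9 FPKM in the GABA-taurine libraries and 3.83 FPKM in the untreated libraries. Of 15 processing and crosslinking genes, 8 were lower and 3 higher by the same rule. Among the 3, Tll1 averaged 0.369 FPKM in the untreated libraries and passed only through its GABA-taurine values. Pcolce, which enhances removal of the procollagen C-propeptide, averaged 80.5 FPKM in the GABA-taurine libraries and 654.1 FPKM in the untreated libraries, while the crosslinking oxidase Lox averaged 189.4 FPKM in the GABA-taurine libraries and 31.4 FPKM in the untreated libraries.

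Of 9 degradation genes, 6 were apart and at least 2-fold lower in the GABA-taurine libraries (21.9% of all genes) and 3 higher (19.8%). Mmp2, a gelatinase, averaged 87.3 FPKM in the GABA-taurine libraries and 848.0 FPKM in the untreated libraries, and the collagenase Mmp13 averaged 23.4 FPKM in the GABA-taurine libraries and 0.964 FPKM in the untreated libraries. Timp1, an inhibitor of these proteases, was at 1071 to 1179 FPKM in the GABA-taurine libraries, against 35.9 FPKM in the Foxl1cre library and 32.6 FPKM in the floxed control library. By the same rule and beside the same shares of all genes, 3 of 7 collagen receptors and uptake genes were lower and 1 higher. Of 12 laminin, nidogen and proteoglycan partners of basement membranes, 8 were lower and 1 higher. Among the lower genes, Itga1, Lama1 and Nid2 averaged under 1 FPKM in the GABA-taurine libraries. They passed the filter only through their untreated values, so their lower level was built into their selection. Mmp13 passed it only through its GABA-taurine values. Nid1, which links laminin to type IV collagen, averaged 193.5 FPKM in the GABA-taurine libraries and 188.4 FPKM in the untreated libraries.

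In the time comparison, 1 of 60 tested partner genes passed the threshold, beside 0.550% of all genes. Timp3, a matrix-bound protease inhibitor, was at 81.3, 91.0 and 80.2 FPKM at 6 h and at 60.0, 65.0 and 67.5 FPKM at 0 h, with no overlap. It was higher at 6 h by 0.39 on the log2 scale (SE 0.07, limma Benjamini-Hochberg adjusted p 0.0335). The call was lost when any library other than replicate 3 at 0 h was left out, and also without the filter, without the variance trend and with the replicate block, with adjusted p-values of 0.0553 to 0.345. By genotype, 20 of 22 folding genes and 13 of 15 processing genes were higher in the Foxl1cre library, with median log2 differences of 0.19 and 0.11, beside 55.0% and 0.04 for all genes. Of the other lists, 11 of 12 basement membrane partners (median 0.17), 5 of 9 degradation genes (median 0.05) and 5 of 8 receptors and uptake genes (median 0.09) were higher.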

How the data were processed

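Per the labels' protocols, cDNA was prepared by SMART-Seq HT and libraries by Nextera XT. The kit does not mark strand. The authors deposited 1 table of FPKM per library. Cuffdiff 2.2.1, TopHat2 2.1.1, SAMtools 0.1.18, Bowtie2 2.2.8 and the build mm10 are listed in the submitters' processing notes without an order. The sources used here do not give the annotation, the handling of multi-mapping reads or the scaling between libraries. Depth in reads is unknown. Total FPKM was 513001 to 579004 per library.

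Groups came from the labels. In the time comparison, limma 3.58.1 (R 4.3.3, with a variance trend) was run on log2(FPKM + 1), 3 libraries against 3, for 10910 genes averaging 1 FPKM or more, and adjusted p-values are Benjamini-Hochberg values over all of these genes. This scale understates differences of low genes. The genotype and library-set comparisons have no test. The fit was tested on simulated data. Alternatives changed the pseudocount, the filter, the scaling, the trend, the replicate block and the libraries.

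The collagens, their classes and the partner and marker lists were chosen with earlier results of these data known. Named with values were the 3 most abundant members of each class, those with an unadjusted p under 0.05 in time, those apart and at least 2-fold between the sets, the 5 largest genotype differences in each direction and the chains of the ratios. The rest are accounted for by level. Gene positions and promoters are from RefSeq GRCm38.p6 (mm10), and transcript lengths from GENCODE. Of the 44 collagens, 35 had a promoter entry. Reads of genes that overlap, such as Col10a1 within Nt5dc1, cannot be told apart.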

Additional observations from a re-analysis of the deposited data

How the results depend on the processing

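No collagen was called between 6 h and 0 h under any of the 13 alternatives. The counts over all genes, 26 higher and 34 lower, fell to 0 and 0 without the filter and without the variance trend and were 14 and 9 with the replicate block, and 41 were higher with a filter of 5 FPKM. With a library left out they ran from 0 to 47 higher and from 2 to 68 lower, highest without replicate 3 at 0 h. Same-numbered libraries did not deviate together (r -0.044, 0.013 and -0.028), so the numbers were not taken as pairs. Without the filter, 29 collagens were higher at 6 h, and under rescaling to a common sum (TPM) the collagen median was 0.092. Small uncalled time differences changed sign. Col4a2 was 0.0034 under TPM scaling. With a library left out, the values ran from -0.0874 to 0.039 for Col4a2, -0.0064 to 0.121 for Col12a1, -0.0376 to 0.0762 for Col16a1, -0.0311 to 0.0611 for Col1a2, -0.0682 to 0.0859 for Col6a1, -0.0207 to 0.139 for Col18a1 and -0.0059 to 0.122 for Col1a1.

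By genotype, 1 collagen, Col28a1, was at least 1.5-fold higher with a pseudocount of 0.1, and the collagen median was 0.077 without the filter, 0.085 under TPM scaling and 0.063 under median-ratio scaling. Between the sets, the collagen median of -2.36 was -2.59 with a pseudocount of 0.1, -1.54 without the filter, -2.85 with a filter of 5 FPKM, -2.18 under TPM scaling, -2.54 under median-ratio scaling and -2.06 with 0 h libraries only. Of the collagens that passed each filter, 19 of 24 were apart and at least 2-fold lower as reported, beside 21.9% of all genes. They were 19 of 24 with a pseudocount of 0.1 (25.2% of all genes), 26 of 44 without the filter (23.4%), 17 of 20 with 5 FPKM (14.9%), 24 of 30 under TPM scaling (30.8%), 22 of 26 under median-ratio scaling (32.5%) and 22 of 27 with 0 h libraries only (25.7%). The causes of these shifts were not tested. Every setting with a filter let in some members, such as Col4a6, only through their untreated values. Part of each of those counts of lower collagens was thus built into the selection. Unknown read depth limits what the values under 1 FPKM can show, and a listed 0 does not show that a gene was absent.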

Other observations

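Of the 44 collagens, 16 were listed at 0 in at least 1 GABA-taurine library and 0 were listed at 0 in an untreated library. Of all 22128 genes above 0 in at least 1 library, 40.3% were listed at 0 in at least 1 GABA-taurine library and 9.58% in an untreated library. Col6a6 and Col26a1 were listed at 0 in all 6 GABA-taurine libraries. Col11a1 was listed at 0 in 5 of the 6, with 0.075 FPKM in 1 library at 0 h. Col7a1, the anchoring fibril collagen, was apart in the opposite direction at low level, at 0.402 to 0.675 FPKM in the GABA-taurine libraries, against 0.141 and 0.242 FPKM in the untreated libraries, a log2 difference of 0.35. Col25a1, a transmembrane collagen best known from neurons, was listed at 0 in 5 of the 6 GABA-taurine libraries and was at 1.61 FPKM in the Foxl1cre library and 1.36 FPKM in the floxed control library. The laminin chain Lama2 averaged 3.73 FPKM in the GABA-taurine libraries and 65.8 FPKM in the untreated libraries. The elastic fibre partner Mfap4 averaged 17.7 FPKM in the GABA-taurine libraries and 660.8 FPKM in the untreated libraries.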
